A study of Mus musculus with 50 samples.

Results

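The genes described here encode the major histocompatibility complex (MHC) class II pathway of the mouse, namely Ciita, Cd74, H2-Aa, H2-Ab1, H2-Eb1, H2-DMa, H2-DMb1, H2-DMb2, H2-Oa and H2-Ob. They were picked by name, with no threshold on a measured value, although earlier results of these data were known, and 10 of the 24984 genes in the count files belong to this set. All samples came from C57BL/6 mice. The study's methods give the young and aged mice of the untreated tissues as female, and they do not describe the DMSO and 3C mice or the fibroblasts. RNA-seq and ATAC-seq, which maps open chromatin, were run on untreated kidney and liver, young at 2.5 months and old at 23 to 25 months of age, with 4 RNA-seq and 3 ATAC-seq libraries per tissue and age. A further RNA-seq set held the same organs from mice 20 to 21 months old that had received DMSO (the control) or an agent labelled 3C, with 4 libraries per group. Another set held skin fibroblasts labelled P9 treated with DMSO or 3C, with 3 libraries per group. What 3C is, its dose and time, and what P9 stands for are not given in the sources used here. The libraries of a group are numbered but are not said to come from separate animals or cultures, so the p-values measure the spread between these libraries.

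MHC class II molecules present peptides from the endosomes to CD4+ T cells and are made mainly by B cells, dendritic cells and macrophages, while many other cells make them after exposure to interferon gamma. CIITA is the coactivator that switches on the whole group; it binds no DNA itself and is recruited by the RFX, CREB and NF-Y factors that sit on the X and Y boxes of class II promoters. CD74, the invariant chain, guides newly made class II molecules to the endosome and fills their groove; H2-Aa with H2-Ab1 form the I-A molecule and H2-Eb1 is the beta chain of I-E. H2-DM (H2-DMa with H2-DMb1 or H2-DMb2) exchanges the leftover CD74 fragment for other peptides, and H2-DO (H2-Oa with H2-Ob), found mostly in B cells, holds H2-DM back.

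The RNA-seq libraries held 14.2 to 43.7 M reads assigned to genes. Levels are given in CPM, counts scaled to a fixed library total. Summed CPM of 10 kidney epithelium markers lay between 14604 and 26169 in kidney and between 0.169 and 37 in liver, those of 10 hepatocyte markers between 118658 and 317246 in liver, and those of 10 fibroblast markers between 24344 and 31295 in the fibroblasts. In the kidney, 3 libraries stood apart. Old kidney replicate 2 had a hepatocyte marker sum of 2863 CPM, against 349 to 538 in the other untreated kidneys. Old kidney replicate 4 was the deepest, at 43.7 M reads against 20.3 to 24.2 M in the other old kidneys, and had a macrophage marker sum of 1045 CPM, against 538 to 654, and a leukocyte marker sum of 209 CPM, against 116 to 166. DMSO kidney replicate 3 had a B cell marker sum of 73.4 CPM, against 12.5 to 22.7 in the other DMSO kidneys, and a plasma cell marker sum of 269 CPM, against 97 to 111. The untreated and the DMSO and 3C tissue libraries carried different tallies of unassigned reads and were therefore not compared with each other.

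Matches to the cores of the X and Y boxes were counted as letters, not as bound sites, in promoters from RefSeq on GRCm38.p6, which held 7 of the 10 genes (all but Ciita, Cd74 and H2-Ab1). Searched on both strands over 300 bases, from 250 before to 50 after the start site, the Y box core ATTGG stood in 7 of 7 promoters (41.1% of the promoters of 27025 genes) and the X box core ACNNATG in 6 of 7, all but H2-DMa (33.4%). An X core followed on the same strand by a Y box, 25 to 32 bases from start to start, stood in 4 of 7 (H2-Eb1, H2-DMb1, H2-DMb2 and H2-Ob), against 72 of the 27025 genes (0.266%); this spacing was chosen after these promoters had been seen. The AP-1 core TGANTCA stood in 2 of 7 (H2-DMa and H2-DMb1, 8.97% of all). The 6 windows below run from 150 to 11 bases before the start site, 5′ to 3′ on the gene's strand, with X core and Y box in capitals, and are shown because the distance between the boxes differs between members that otherwise share them. In H2-Eb1 (chr17:34305717-34305856, plus strand) the X core starts at -88 and the Y box at -59, 29 bases on, and in H2-DMb1 (chr17:34153041-34153180, plus strand) the distance is 30. H2-DMb2 (chr17:34145099-34145238, plus strand) has the same distance of 30, from -120 to -90. In H2-Ob (chr17:34238755-34238894, plus strand) the distance is 27. H2-Oa (chr17:34092229-34092368, plus strand) carries adjacent X cores at -137 and -130 and its Y box only at -43, and H2-Aa (chr17:34287834-34287973, minus strand) has the Y box at -48 and no X core of these letters in the window.
H2-Eb1: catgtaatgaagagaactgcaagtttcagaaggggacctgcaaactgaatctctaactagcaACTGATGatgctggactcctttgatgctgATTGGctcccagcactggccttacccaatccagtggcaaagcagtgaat
H2-DMb1: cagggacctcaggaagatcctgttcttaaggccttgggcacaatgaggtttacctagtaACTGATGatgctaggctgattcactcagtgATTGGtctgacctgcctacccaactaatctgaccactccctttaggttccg
H2-DMb2: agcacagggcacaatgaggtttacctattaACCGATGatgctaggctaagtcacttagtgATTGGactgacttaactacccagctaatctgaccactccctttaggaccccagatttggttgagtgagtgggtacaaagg
H2-Ob: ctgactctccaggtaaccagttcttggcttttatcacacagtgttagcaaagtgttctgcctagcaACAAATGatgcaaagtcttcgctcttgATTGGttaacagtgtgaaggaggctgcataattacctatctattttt
H2-Oa: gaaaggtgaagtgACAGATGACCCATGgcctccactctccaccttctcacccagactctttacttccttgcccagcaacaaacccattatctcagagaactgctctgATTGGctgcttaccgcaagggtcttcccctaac
H2-Aa: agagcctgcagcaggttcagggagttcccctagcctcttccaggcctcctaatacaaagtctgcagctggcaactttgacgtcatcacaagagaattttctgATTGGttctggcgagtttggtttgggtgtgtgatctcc

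Per length the members fell into a high and a low set in kidney and liver. Levels between genes are given as CPM per kilobase of exon, as mean ± SD. In old kidney (n = 4 libraries) Cd74 stood at 347 ± 45.4, H2-Aa at 283 ± 58.5, H2-Ab1 at 186 ± 19.7 and H2-Eb1 at 171 ± 16.3. The neighbours Cd74 and H2-Aa overlapped in this order, as did H2-Ab1 and H2-Eb1. The DM chains H2-DMb1 and H2-DMa followed at 21.4 ± 0.995 and 9.75 ± 0.795, and H2-DMb2 at 2.38 ± 0.366, each apart from its neighbours. H2-Ob (1.48 ± 0.224), Ciita (1.2 ± 0.408) and H2-Oa (1.14 ± 0.371) came last and overlapped from one to the next.

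The same first 4 genes and the same DM order were found in all 8 kidney and liver groups, with H2-Ab1 in place of H2-Aa as second in the 4 DMSO and 3C groups, where those 2 overlapped. H2-DMb1 and H2-DMa, the next 2 in that order, overlapped in young, old and 3C liver. Among the untreated groups Cd74 was lowest in young kidney, at 83 ± 9.2 CPM per kb, close to young liver at 89.9 ± 21.3 (n = 4 each). In DMSO fibroblasts (n = 3 libraries) the order was another: H2-DMb1 led at 13.4 ± 1.12 and H2-DMa followed at 7.03 ± 0.788, while H2-Ab1 stood at 3.46 ± 0.517, H2-Eb1 at 0.782 ± 0.137 and Cd74 at 0.323 ± 0.203 CPM per kb. H2-DMb1 and H2-DMb2 share reads to an unknown extent, since 22.7% of the 50-base words of H2-DMb1 transcripts also occur in H2-DMb2 and 21.2% the other way. H2-Oa overlaps the antisense gene BC051537 over 19.1% of its exon length, and reads were counted without regard to strand.

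**Figure D1:**
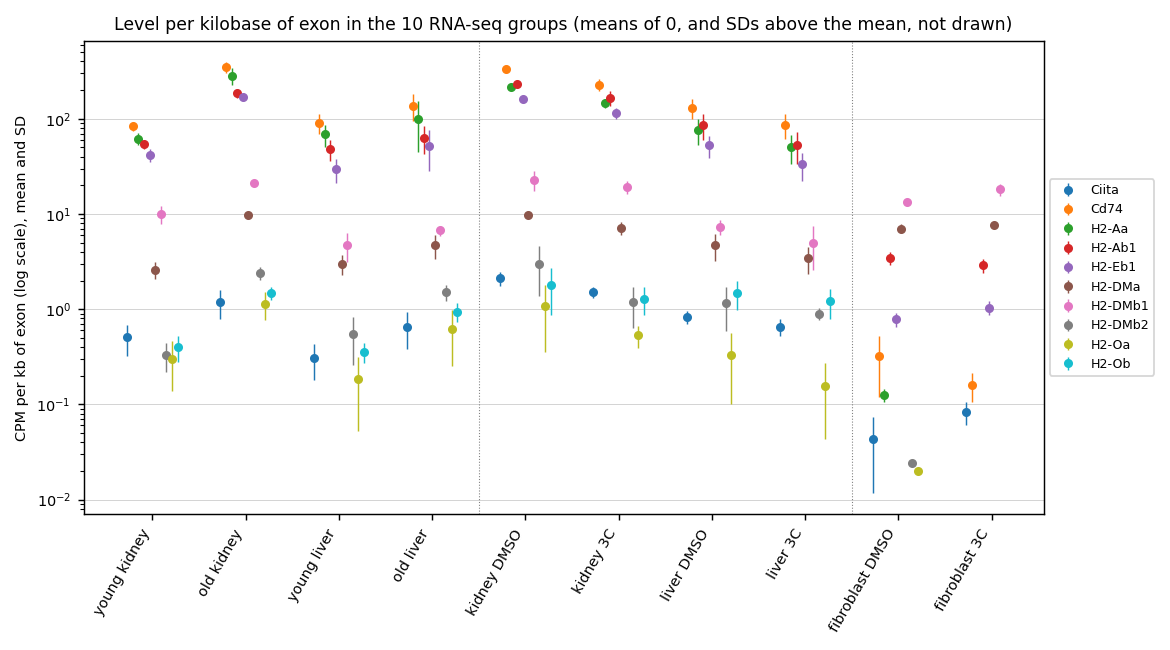
Mean level of each gene in CPM per kilobase of exon (log axis, bars are SD, n = 4 libraries for tissues and 3 for fibroblasts) in the 10 RNA-seq groups; dotted lines part the sets that were scaled separately. Cd74, H2-Aa, H2-Ab1 and H2-Eb1 lie highest in every kidney and liver group, from 29.7 to 347, and H2-DMb1 lies highest in the fibroblasts.

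The age comparison asks what differs between young and old tissue. In the kidney all 10 class II genes were higher with age, by 2.22-fold (H2-DMb1) to 7.56-fold (H2-DMb2), and the lowest old library exceeded the highest young library for each of them. A gene was called where edgeR's quasi-likelihood test, after Benjamini-Hochberg adjustment, gave a p below 0.05 and the fold was over 2 or under 0.5. By this rule edgeR called 10 of 10 as higher, where it called 823 of 14495 genes (5.68%) as higher. One of the 10, H2-Oa, passed the filter on low counts through the old libraries alone and lends no support to this count. The test called 59 genes (0.407%) as lower, none of them in the class II set. The median log2 fold change of the 10 was 2.0, against 0.021 over all genes tested, and 9.5% of all genes had old and young libraries parted in that direction. DESeq2 called the same number, 10.

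Ciita, the coactivator, had 4.05, 3.72, 1.6 and 2.72 CPM in the young kidneys and 5.42, 9.8, 4.8 and 8.69 CPM in the old. The groups did not overlap, but the lowest old library exceeded the highest young one by under 1 CPM. Its log2 fold change was 1.32 ± 0.34 (SE), adjusted p = 0.0323 by edgeR. This call was lost when young kidney replicate 2, 3 or 4 or old kidney replicate 4 was left out, with adjusted p between 0.0554 and 0.0952.

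Cd74, the invariant chain, had 107, 110, 116 and 136 CPM in young and 447, 447, 488 and 583 CPM in old kidney. The lowest old library was thus more than 3 times the highest young one, and the log2 fold change was 2.13 ± 0.15 (SE, adjusted p = 0.000173, edgeR).

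The transcripts of the I-A chains and of the I-E beta chain moved by similar amounts. H2-Aa, the alpha chain of I-A, had 67.1, 59.8, 67 and 84.4 CPM in young and 245, 284, 363 and 386 CPM in old kidney. H2-Ab1, its beta chain, had 61.6, 60.3, 60.9 and 74.9 CPM in young and 209, 232, 198 and 250 CPM in old kidney. H2-Eb1 had 62.8, 63.1, 65.9 and 85.9 CPM in young and 264, 269, 285 and 324 CPM in old kidney. For these 3 chains the 4 young libraries lay close together, with replicate 4 the highest, and far below the old ones. Their log2 fold changes were 2.26 ± 0.18, 1.85 ± 0.14 and 2.10 ± 0.15 (SE), with adjusted p of 0.000376, 0.000248 and 0.000177 by edgeR.

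The chains of the peptide editor H2-DM differed more. H2-DMa had 5.61, 6.06, 4.05 and 6.73 CPM in young and 21.9, 18.6, 22.4 and 21.5 CPM in old kidney (log2 fold change 1.97 ± 0.16 SE). H2-DMb1 had 15.9, 11.8, 9.56 and 14.4 CPM in young and 26.2, 27.5, 29.2 and 26.9 CPM in old kidney (1.15 ± 0.16). H2-DMb2 had 0.493, 0.77, 0.75 and 0.372 CPM in young and 3.94, 4.71, 3.58 and 5 CPM in old kidney (2.92 ± 0.29). H2-DMb1 was thus the most abundant DM chain in young kidney and H2-DMb2 the one with the highest fold, with confidence intervals of 0.80 to 1.5 and 2.27 to 3.57 that did not overlap. The adjusted p by edgeR were 0.00038, 0.00201 and 0.000655.

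Of the H2-DO chains, H2-Ob had 0.834, 1.54, 0.901 and 0.991 CPM in young and 4.12, 4.26, 3.08 and 4.4 CPM in old kidney (log2 fold change 1.95 ± 0.27 SE, adjusted p = 0.00201, edgeR). H2-Oa was read by few counts, 10, 2, 9 and 9 in the young and 18, 60, 39 and 97 in the old kidneys, so that it passed the filter on low counts through the old libraries. Its log2 fold change was 2.03 ± 0.53 (adjusted p = 0.035, edgeR), and the call was lost in 7 of 13 alternatives, among them the fits without any 1 of the 4 young libraries. The paralog H2-Eb2, a second I-E beta gene that is not a member, had 7 counts over the young and 252 over the old kidneys, and it too passed the filter on low counts through the old libraries.

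**Figure D2:**
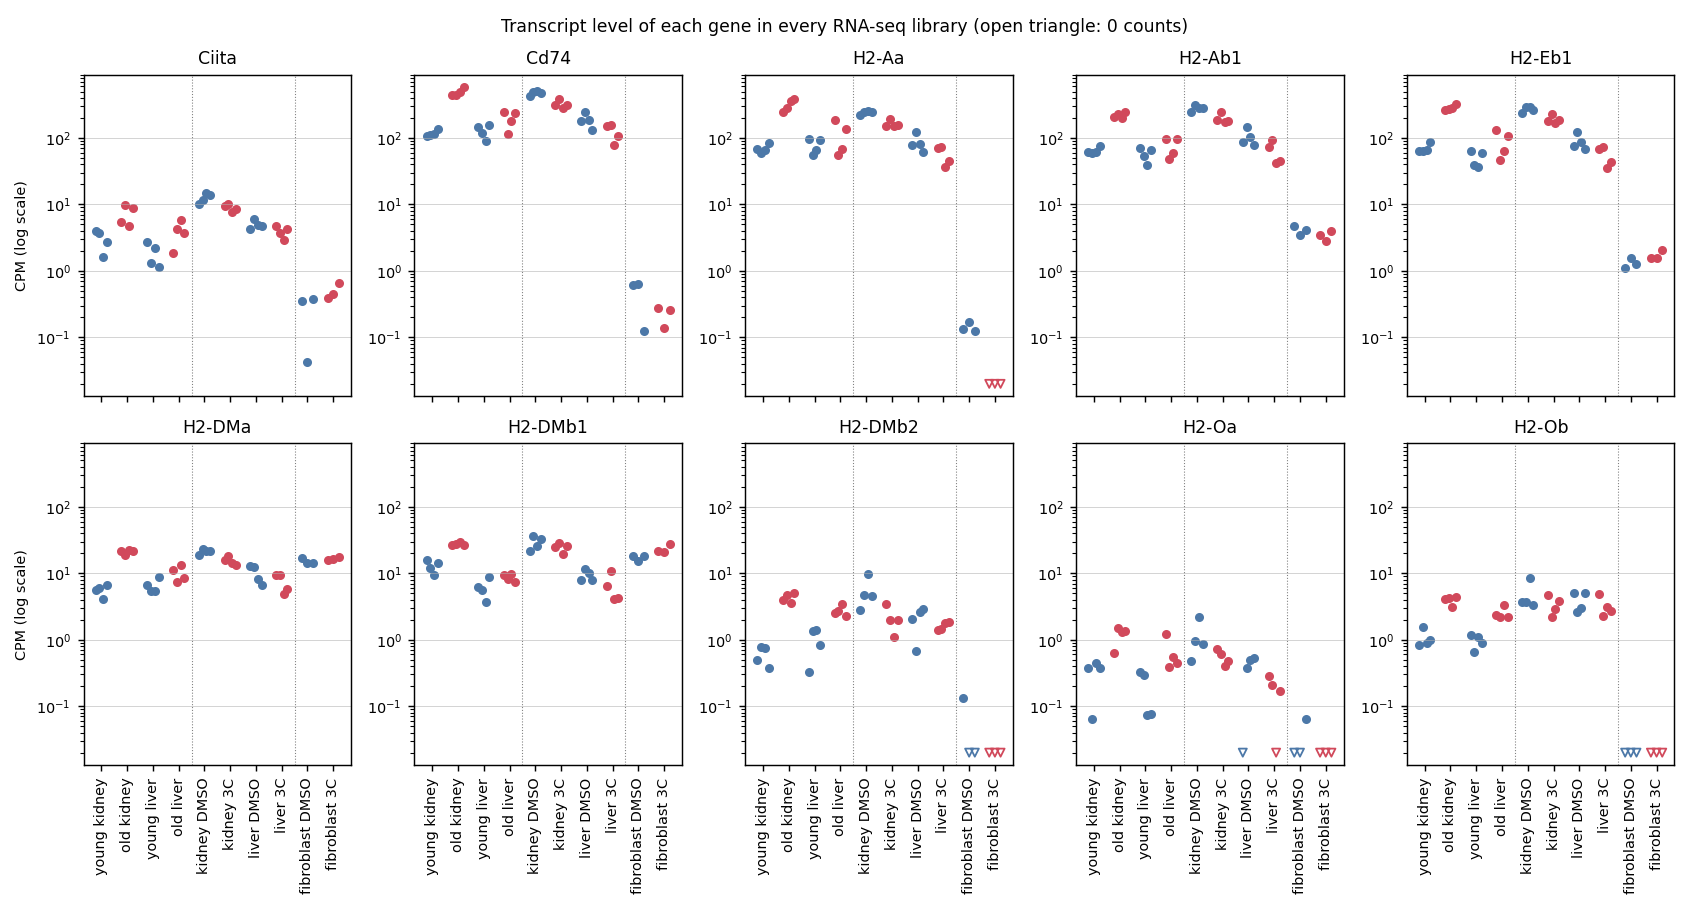
CPM (log axis) of each of the 10 genes in every RNA-seq library by group, with young or DMSO libraries in blue, old or 3C libraries in red, and open triangles for libraries with 0 counts. Old kidneys lie above young kidneys in all 10 panels, while the liver groups overlap in most.

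Other genes of antigen presentation moved in part with the class II set in the aging kidney. Of 19 regulators tested, 3 rose: Pou2af1, a B cell coactivator (log2 fold change 5.76), Spi1, a myeloid and B cell transcription factor (2.41), and Irf8 (1.08), whereas the RFX and NF-Y subunits were not called. Of 11 processing genes 2 rose, namely Ctss, the protease that trims CD74 (2.95), and Cd83 (1.86). Of 12 class I genes tested 9 rose, among them H2-K1 (1.33), Psmb8 (1.48) and B2m (1.22). Of 10 partners and receptors 6 rose, among them Cd44 (2.99), Lag3 (2.17) and Cd86 (2.34), and of 11 interferon gamma response genes 2 rose, namely Cxcl9 (1.98) and Cxcl10 (1.52). Below the call, 10 of 19 regulators and 7 of 11 interferon gamma response genes stood higher at an unadjusted p under 0.05, called genes included, as did 16.4% of all genes.

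Markers of leukocytes, both of those that make class II and of others, rose in the same kidneys: 5 of 5 leukocyte, 7 of 9 B cell, 4 of 6 plasma cell, 10 of 12 macrophage, 6 of 10 dendritic cell and 7 of 8 T cell markers tested, against 0 of 8 endothelial, 0 of 10 kidney epithelium, 1 of 8 hepatocyte (F2) and 3 of 10 fibroblast markers (Thy1, S100a4 and Lum). Of all genes 5.68% were called as higher. Markers with few counts in young kidney, as in the B cell list, can have passed the filter on low counts through the old libraries alone. Calls of such markers lend no support to these counts. Their summed levels did not overlap between ages: 2.55 to 5.38 CPM in young and 26.6 to 67.6 CPM in old kidney for B cells, 133 to 152 and 538 to 1045 for macrophages, 7.9 to 12.9 and 20.2 to 32.4 for dendritic cells, and 4.81 to 6.67 and 24.5 to 32.6 for T cells. In the untreated kidneys no marker of these 4 lists was at 0 in every library of an age but Clec4f and Vsig4, of the macrophage list, in young kidney. In bulk tissue, more cells of a type and more RNA per cell cannot be told apart, and the part of these markers in the class II result was not tested. Without old kidney replicate 2, the library with hepatocyte markers, 10 of 10 class II genes were still called, with log2 fold changes from 1.12 (Ciita) to 2.86 (H2-DMb2). Without old kidney replicate 4, the library with the highest macrophage and leukocyte sums, 8 of 10 were called, from 1.14 (H2-DMb1) to 2.82 (H2-DMb2), and the calls of Ciita (1.20, adjusted p = 0.0952) and H2-Oa (1.94, adjusted p = 0.0979, both edgeR) were lost.

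**Figure D3:**
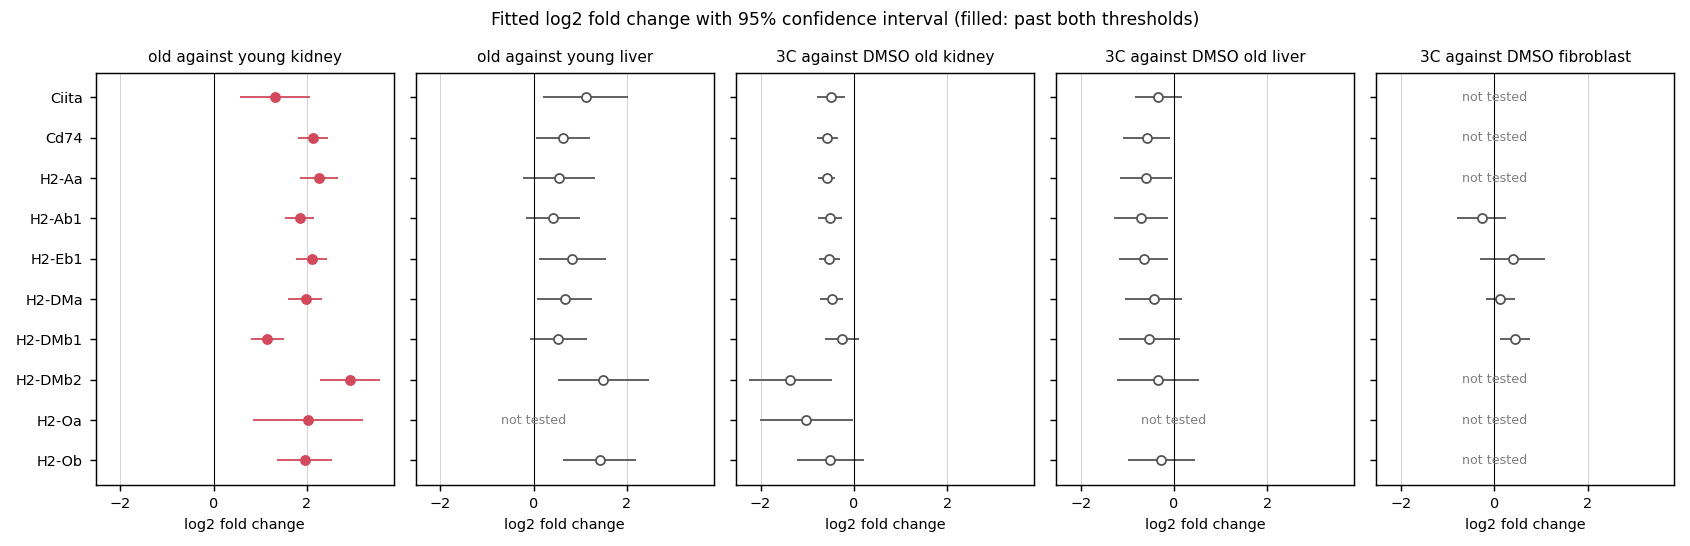
Log2 fold change with its 95% confidence interval for each gene in the 5 comparisons of old with young or 3C with DMSO, from edgeR; filled red points passed both the adjusted p and the fold threshold. All 10 genes passed in the aging kidney, and none passed in the other 4 comparisons.

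In the liver the class II genes stood higher in old mice by smaller and less certain amounts. Of the 9 genes tested, edgeR called 0, where it called 212 of 12537 genes (1.69%) as higher and 55 (0.439%) as lower, while 6 of the 9 had an unadjusted p under 0.05 and a fold above 1 (Ciita, Cd74, H2-Eb1, H2-DMa, H2-DMb2 and H2-Ob; 9.99% of all genes) and DESeq2 called 2, H2-DMb2 and H2-Ob. H2-DMb2, with 5, 23, 19 and 11 counts in the young livers, passed the filter on low counts only through the old ones and lends no support to these counts. All 9 log2 fold changes were above 0 (50.4% of all genes), with a median of 0.66 against 0.0035 over all genes. H2-Oa was not tested because of its low counts, which were 1 to 5 in young and 8 to 16 in old liver.

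Cd74 had 147, 117, 89.1 and 155 CPM in young and 246, 114, 177 and 237 CPM in old liver, so that old replicate 2 lay within the young range (log2 fold change 0.62, 95% confidence interval 0.04 to 1.20, adjusted p = 0.301, edgeR). H2-Aa had 95.9, 55.2, 65.8 and 91.6 CPM in young and 185, 55.7, 68.1 and 136 CPM in old liver (0.54, interval -0.23 to 1.32). The old livers thus differed more among themselves than the young ones, with replicates 1 and 4 high and 2 and 3 low, and H2-Ab1 (log2 fold change 0.41, interval -0.17 to 0.99) and H2-Eb1 (0.83, interval 0.11 to 1.54) had the same replicates high and low. The DM chains H2-DMa (0.66, interval 0.069 to 1.25) and H2-DMb1 (0.53, interval -0.08 to 1.14) were highest in old replicate 3.

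Of the 9 genes tested in liver, H2-Ob had no overlap (5.85% of all genes had libraries parted in that direction), nor had H2-DMb2, whose separation lends no support because of the filter. H2-DMb2 had 0.322, 1.37, 1.41 and 0.827 CPM in young and 2.56, 2.68, 3.46 and 2.25 CPM in old liver (log2 fold change 1.49 ± 0.45 SE, adjusted p = 0.119, edgeR). H2-Ob had 1.16, 0.657, 1.11 and 0.902 CPM in young and 2.34, 2.2, 3.33 and 2.2 CPM in old liver (1.41 ± 0.36, adjusted p = 0.0699). Ciita overlapped between the ages, with 2.7, 1.31, 2.23 and 1.13 CPM in young and 1.89, 4.26, 5.91 and 3.66 CPM in old liver (1.12 ± 0.42, adjusted p = 0.223).

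Around them, 0 of 18 regulators, 0 of 12 class I genes and 0 of 11 interferon gamma response genes were called in the aging liver by edgeR (5, 3 and 2 stood higher at an unadjusted p under 0.05), while 2 of 11 processing genes rose, Ifi30, a lysosomal thiol reductase (log2 fold change 1.30), and Ctss (1.05), and 1 of 11 partners, Cxcr2 (4.12). The genes of smallest p in the lists without a call were Irf1 (0.89, adjusted p = 0.0203 but a fold under 2), H2-M3 (0.66) and Iigp1 (-0.67). Of the markers tested, 1 of 5 leukocyte, 2 of 6 B cell, 2 of 5 plasma cell and 4 of 15 macrophage genes rose and 0 of 6 T cell and 0 of 8 dendritic cell genes were called by edgeR (2 and 2 stood higher at an unadjusted p under 0.05), with B cell sums of 5.85 to 9.32 CPM in young and 13.4 to 67.5 CPM in old liver and macrophage sums of 1186 to 1785 and 1651 to 3130. Dendritic cell sums were 9.74 to 12.8 and 12.1 to 21, and T cell sums 5.13 to 10.9 and 13.5 to 20.7. Of all genes 1.69% were called as higher, and markers with few counts in young liver can have passed the filter on low counts through the old libraries alone. The part of these markers in the class II values was not tested.

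The 2 organs were set against each other within each age. In a fit over the 16 untreated libraries, young kidney exceeded young liver in 1 of 10 members, H2-DMb1 (log2 fold change 1.08 ± 0.22, adjusted p = 0.000407, edgeR), where 26.5% of 15036 genes were called as higher and 16.4% as lower in kidney, and no member as lower. The other 9 log2 differences lay between -0.73 (H2-DMb2, interval -1.55 to 0.094) and 0.71 (Ciita, interval -0.13 to 1.54). The H2-DMb1 call was lost without young kidney replicate 1 (0.93) or young liver replicate 3 (0.90), where the fold no longer reached 2. Without young liver replicate 1, H2-DMb2 was called in the other direction, as lower in young kidney (-1.03, adjusted p = 0.0148, edgeR).

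In old mice 6 of 10 members were called as higher in kidney than in liver and none as lower (25.4% and 16.1% of all genes were): Cd74 by 1.33 ± 0.23, H2-Aa by 1.51 ± 0.31, H2-Ab1 by 1.55 ± 0.22, H2-Eb1 by 1.70 ± 0.28, H2-DMa by 1.05 ± 0.21 and H2-DMb1 by 1.65 ± 0.22 on the log2 scale (SE), with adjusted p between 4.69e-06 and 0.000521 (edgeR). The H2-DMa call was lost without old liver replicate 2 or 4 (0.92 and 0.97), and 6 members were called without old kidney replicate 2 and 6 without old kidney replicate 4. Ciita (0.85), H2-DMb2 (0.64), H2-Oa (0.92) and H2-Ob (0.65) were not called. Class I genes and macrophage markers stood the other way in both ages, with 10 of 12 and 14 of 15 called as lower in young kidney than in young liver, and 8 of 12 and 14 of 15 in old. Dendritic cell markers were called as higher in old kidney for 3 of 10, near the 25.4% of all genes. The count was 0 of 5 for leukocyte, 1 of 9 for B cell, 1 of 6 for plasma cell and 0 of 8 for T cell markers.

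The difference between the age effects of kidney and liver was tested itself, as an interaction. It was called in 3 of 10 members, Cd74 (log2 difference 1.46 ± 0.32, adjusted p = 0.031), H2-Ab1 (1.39 ± 0.31, adjusted p = 0.031) and H2-DMa (1.27 ± 0.31, adjusted p = 0.0475, all edgeR), where 0.845% of 15036 genes were called with a greater value and 0.871% with a lower value in kidney. H2-Aa had the largest difference of the 10 and missed the threshold (1.67 ± 0.44, adjusted p = 0.068, though DESeq2 called it at 1.70, adjusted p = 0.01, and called 4 members in all), as did H2-Eb1 (1.23 ± 0.38, adjusted p = 0.126) and H2-DMb2 (1.37 ± 0.51, adjusted p = 0.211). H2-DMb1 (0.58), H2-Ob (0.49), H2-Oa (0.31) and Ciita (0.15) had smaller differences that were not called. The H2-DMa call was lost in 15 of 21 alternatives, among them RLE size factors (adjusted p = 0.0509) and no filter on low counts (adjusted p = 0.0537). These calls rest on few libraries: 0 members were called without any 1 of young kidney replicates 1, 2 and 3, old kidney replicate 4 or young liver replicates 1 and 4, 1 without old liver replicate 2 or 3, and 5 without old liver replicate 1. Without old kidney replicate 2, the library with hepatocyte markers, 2 members were called. The same interaction was called for Ctss (1.84) among 11 processing genes, with Lgmn (-1.18) in the other direction, for H2-K1 (1.53) among 12 class I genes, for Cd86 (1.68) among 12 partners, and for Cxcl10 (1.98), Iigp1 (1.34) and Cxcl9 (2.06) among 11 interferon gamma response genes, but for 0 of 19 regulators (3 at an unadjusted p under 0.05). It was also called for 5 of 15 macrophage, 1 of 8 T cell, 1 of 5 leukocyte, 0 of 9 B cell and 0 of 10 dendritic cell markers, whose part in the class II result was not tested.

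Treatment with 3C was compared with DMSO in both organs of the mice 20 to 21 months old. In the kidney all 10 class II genes stood lower after 3C, by a median log2 fold change of -0.52 against 0.0038 over all genes, but edgeR called none of them, nor any of the 14974 genes tested (0% in either direction). An unadjusted p under 0.05 with a lower value was found for 8 of the 10, all but H2-DMb1 and H2-Ob (7.09% of all genes), and 48.6% of all genes had a log2 fold change below 0. DESeq2 called 1 member, H2-DMb2, among 5 genes it called as lower.

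For 4 members every 3C kidney lay below every DMSO kidney (3.31% of all genes). Cd74 had 427, 495, 514 and 472 CPM with DMSO and 316, 389, 283 and 309 CPM with 3C, a log2 fold change of -0.57 ± 0.10 (SE, adjusted p = 0.138, edgeR). H2-Aa had 221, 250, 254 and 247 CPM with DMSO and 152, 191, 153 and 158 CPM with 3C (-0.58 ± 0.085, adjusted p = 0.138). Both groups were tight and the gap was narrow, with 3C replicate 2 the highest of its group for each gene. H2-Eb1 had 236, 288, 291 and 265 CPM with DMSO and 180, 226, 167 and 185 CPM with 3C (-0.53 ± 0.10, adjusted p = 0.151), and H2-DMa 18.9, 23.5, 21.3 and 21.7 CPM and then 16, 18.4, 14.1 and 13.2 CPM (-0.48 ± 0.11, adjusted p = 0.195).

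The other 6 members overlapped between 3C and DMSO kidneys. H2-Ab1 had 243, 312, 286 and 278 CPM with DMSO and 189, 249, 171 and 183 CPM with 3C, where replicate 2 alone of the 3C kidneys reached the DMSO range (log2 fold change -0.51 ± 0.12, adjusted p = 0.195, edgeR). H2-DMb1 had the smallest difference of the 10 (-0.25, interval -0.62 to 0.11). Ciita came close to parting, with 10.1, 11.7, 14.7 and 13.9 CPM with DMSO and 9.53, 10.3, 7.77 and 8.52 CPM with 3C (-0.50 ± 0.14, adjusted p = 0.23). H2-DMb2 had 2.79, 4.69, 9.59 and 4.48 CPM with DMSO and 3.47, 2, 1.1 and 1.96 CPM with 3C, a log2 fold change of -1.36 ± 0.40 (adjusted p = 0.253, edgeR). H2-Ob had 3.73, 3.64, 8.43 and 3.34 CPM with DMSO and 4.7, 2.19, 2.93 and 3.86 CPM with 3C (-0.51 ± 0.33, adjusted p = 0.594). In both genes, and in H2-Oa, DMSO replicate 3, the library with B cell and plasma cell markers, was the highest of all 8. Without it the log2 fold change of H2-DMb2 was -0.91, that of H2-Oa, which passed the filter on low counts only through the DMSO libraries and lends no support to the counts above, -0.45 in place of -1.02, and that of H2-Ob -0.071, while Cd74 (-0.53), H2-Aa (-0.55), H2-Eb1 (-0.48) and H2-DMa (-0.47) changed by 0.05 or less.

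Several marker and pathway lists also stood lower in the 3C kidneys, with no gene called: 5 of 5 leukocyte, 12 of 12 macrophage, 10 of 10 dendritic cell, 9 of 9 B cell, 8 of 8 T cell, 10 of 10 fibroblast and 8 of 8 endothelial markers, 12 of 12 class I genes and 11 of 11 interferon gamma response genes had a log2 fold change below 0. So did 10 of 11 partners (median -0.51), while the median of the endothelial markers was only -0.14. Other lists were mixed or had medians near those of all genes, with 7 of 11 processing genes (median -0.0049), 12 of 19 regulators (-0.14), 4 of 5 plasma cell (-0.071), 5 of 10 kidney epithelium (0.00018) and 6 of 9 hepatocyte markers (-0.12) below 0. The genes of smallest p in the pathway lists were Spi1 (log2 fold change -0.61), Ctss (-0.60), B2m (-0.45), Cd40 (-0.75) and Gbp5 (-0.50). Summed macrophage markers were 484 to 528 CPM with DMSO and 304 to 464 with 3C, dendritic cell markers 34.4 to 39.2 and 25.9 to 30.4, leukocyte markers 123 to 192 and 79 to 119, and fibroblast markers 416 to 535 and 228 to 369, with no overlap in these 4. Their median log2 fold changes were -0.54, -0.40, -0.57 and -0.63, and the part of these cells in the class II values was not tested.

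In the liver 9 members were tested and all 9 stood lower with 3C (50.3% of all genes did), by a median log2 fold change of -0.53 against -0.0014 over all genes, with overlap between the groups for each (1.15% of all genes had every 3C library below). edgeR and DESeq2 both called 0 members (edgeR called 0% of 13042 genes), and 4 had an unadjusted p under 0.05 (Cd74, H2-Aa, H2-Ab1 and H2-Eb1; 1.43% of all genes stood lower at that p). Cd74 had 178, 242, 185 and 133 CPM with DMSO and 151, 154, 78.2 and 106 CPM with 3C (log2 fold change -0.59, 95% confidence interval -1.09 to -0.085). In both groups replicates 3 and 4 lay below replicate 2. The log2 fold changes of the others were -0.60 for H2-Aa, -0.71 for H2-Ab1, -0.65 for H2-Eb1, -0.44 for H2-DMa, -0.53 for H2-DMb1, -0.34 for H2-DMb2 and for Ciita and -0.28 for H2-Ob, and H2-Oa was not tested. In these livers 12 of 12 class I genes, 9 of 11 partners, 9 of 11 interferon gamma response genes, 7 of 11 processing genes and 11 of 19 regulators also had a log2 fold change below 0, as did 5 of 5 leukocyte, 8 of 8 B cell, 4 of 5 plasma cell, 7 of 7 T cell, 13 of 15 macrophage and 5 of 7 dendritic cell markers. So did 9 of 10 fibroblast, 7 of 8 endothelial and 6 of 10 hepatocyte markers, and no gene of these lists was called. T cell marker sums were 14 to 19.2 CPM with DMSO and 8.77 to 11.7 CPM with 3C, while macrophage sums overlapped at 630 to 1448 and 473 to 968. Their part in the class II values was not tested. The interaction of 3C with organ was called in 0 of 10 members by edgeR and by DESeq2, and 0 had an unadjusted p under 0.05 (1.46% of 15526 genes stood higher and 2.11% lower in kidney at that p). For Cd74 the difference between the organs was 0.034 on the log2 scale, with an interval of -0.55 to 0.61.

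In the skin fibroblasts the class II set was mostly at or near the limit of detection. H2-Ob had 0 counts in all 6 libraries, where 3 counts would equal 0.126 to 0.194 CPM, and the counts summed over 3 libraries were 1 and 0 for H2-Oa, 3 and 0 for H2-DMb2, 9 and 0 for H2-Aa, 31 and 12 for Cd74 and 15 and 27 for Ciita with DMSO and 3C. H2-DMa, H2-DMb1, H2-Ab1 and H2-Eb1 passed the filter on low counts. Of these 4, edgeR and DESeq2 both called 0 (edgeR called 1.23% of 13449 genes as higher and 0.632% as lower), and 1 had an unadjusted p under 0.05 with a higher value (10.7% of all genes).

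That gene was H2-DMb1, with 18.1, 15.5 and 18 CPM under DMSO and 21.9, 20.8 and 27.3 CPM under 3C (log2 fold change 0.44 ± 0.15 SE, adjusted p = 0.122, edgeR). Its groups did not overlap, as in 12.9% of all genes. H2-DMa differed by 0.13 (interval -0.18 to 0.44), H2-Eb1 by 0.40 (-0.30 to 1.09) and H2-Ab1 by -0.27 (-0.79 to 0.25). In the same cells 3 of 9 interferon gamma response genes rose, Iigp1 (log2 fold change 2.98), Igtp (1.37) and Gbp2 (1.04), as did Psmb8 (1.24), an immunoproteasome subunit. Ctss fell by 1.91 on the log2 scale, and of the 6 partners tested none was called, with Cd40 at -0.84. Leukocyte marker sums were 44.7 to 63.8 CPM with DMSO and 21 to 30.8 CPM with 3C, and macrophage marker sums 308 to 394 and 139 to 207. Of 10 macrophage markers tested 9 lay below 0, with 1 called as lower (Lyz2), and the 1 above 0 was called as higher. Dendritic cell sums were 2.42 to 2.84 CPM with DMSO and 1.73 to 3.3 CPM with 3C and B cell sums 0.965 to 1.98 and 0.548 to 1.23, and the part of such cells in these values was not tested.

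Open chromatin at the promoters was read from peaks called in each ATAC-seq library, as the greatest fold enrichment over background of any peak within 1 kb of a start site. In kidney 8 of 10 members had a peak in every young library and 9 in every old one, where 84.2% and 81.7% of the 17159 promoters with a peak in any kidney library did. H2-Aa had fold enrichments of 4.14, 4.17 and 4.1 in young and 4.75, 6.39 and 5.61 in old kidney, and Cd74 2.23, 1.96 and 2.27 in young and 2.72, 2.81 and 2.85 in old kidney. In these 2 of 10 members every old library exceeded every young one, a share to be read against 13.5% of 17159 promoters with a peak, and the exact two-sided permutation p was 0.1 for each, the smallest that 3 against 3 libraries allow. In 0 members every old library lay below every young one (8.89% of promoters).

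The other kidney promoters overlapped between ages. H2-DMb1 had the highest group means of the set, at 3.88, 6.19 and 6.78 in young and 4.79, 7.63 and 9.53 in old kidney. H2-Eb1 had 2.95, 2.77 and 4.51 in young and 6.91, 3.25 and 4.46 in old kidney. In all 6 libraries the summit of the H2-Eb1 peak lay between -77 and -42 bases from the start site and that of H2-DMb1 between -68 and -30, within the windows whose boxes are printed above.

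H2-DMb2 had a peak in 1 of 3 young and 3 of 3 old kidneys, at the first of its 2 start sites, while the second, whose window is printed above, had one in 1 of the 6 kidney libraries (old replicate 3, 2.15). H2-Oa had a peak in 0 of 3 young and 1 of 3 old kidneys. A missing peak means that none was called and not that the signal was 0. The old kidney libraries had fewer distinct peaks, 93072 to 108970 against 115836 to 128395 in young, so fewer peaks were called at this age in general.

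Within 5 kb of the 10 genes, 2 of 71 kidney regions held a peak in every old and no young library (0.323% of all 255645 regions) and 1 held a peak in every young and no old library (1.52%). The gained ones were chr17:34238509-34239127, over the start site of H2-Ob, and chr16:10475468-10476479, centred at -4099 bases from the nearest start site of Ciita. The lost one was chr17:34313471-34313761, inside H2-Eb1, 7749 bases from its start. At H2-Ob the greatest peak within 1 kb lay 863 to 981 bases after the start site in the young kidneys, at 579 bases in old replicate 1, and at -62 and -109 bases in old replicates 2 and 3. Ciita has 3 annotated start sites, and a peak overlapped the 1 kb around the third, at chr16:10489781, in 12 of 12 kidney and liver libraries (1.89 to 5 fold enrichment). Its summit lay between -440 and 657 bases from that site, except in young liver replicate 1. There the summit lay at -1097 bases, and the peak was also the greatest one at the second start site.

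In liver 6 of 10 members had a promoter peak in every young and 3 in every old library, where 76% and 75.7% of the 17094 promoters with a peak in any liver library did. In none was every old library higher (7.09% of promoters). H2-Ob had a peak in 1 of 3 young (3.08) and 3 of 3 old livers (2.78, 3.4 and 3.65), and H2-Aa in 1 of 3 young (2.29) and 2 of 3 old livers (4.29 and 3.99). H2-DMa was lower in every old library (5.74% of promoters), at 2.4, 2.89 and 3.38 in young and 2.34 and 1.8 in the 2 old livers with a peak, exact permutation p = 0.1. Of 70 regions within 5 kb of the genes none was gained or lost in every library (0.544% and 0.985% of all regions).

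**Figure D4:**
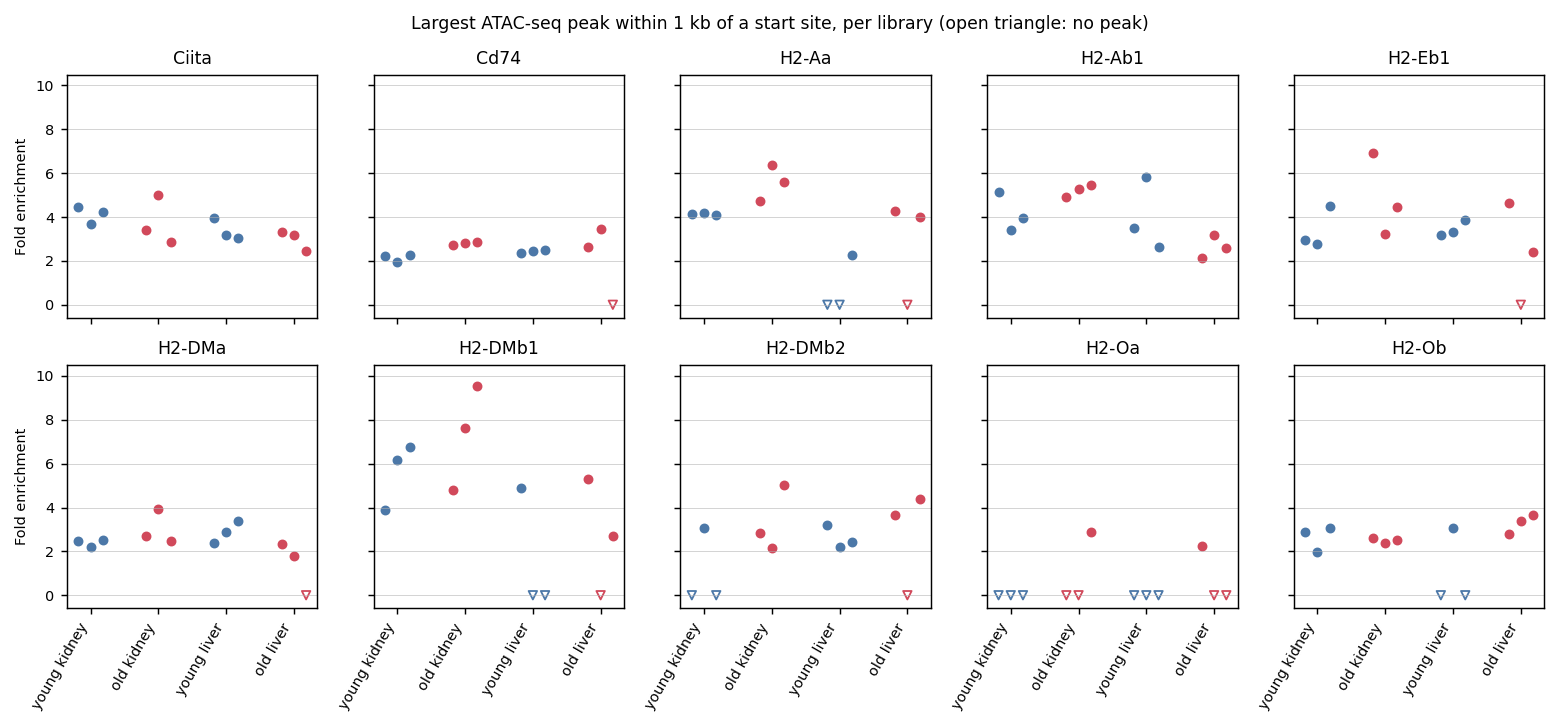
Greatest fold enrichment of an ATAC-seq peak within 1 kb of a start site of each gene, in every library (3 per group; young in blue, old in red; open triangles mark libraries with no peak called there). Old kidneys lie above young ones for Cd74 (2.72 to 2.85 against 1.96 to 2.27) and H2-Aa (4.75 to 6.39 against 4.1 to 4.17), and the other kidney groups overlap or lack peaks.

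Within groups, the members split into those that followed Cd74 from library to library and those that did not. The correlations below were taken over the 32 kidney and liver libraries of log2 CPM with each group's mean removed. They are a description with no test, and the points share the depth and composition of their library. Of 15844 genes, the 3 most like Cd74 were H2-Eb1 (Pearson r = 0.95, Spearman rho = 0.939), H2-Ab1 (0.933 and 0.903) and H2-Aa (0.894 and 0.92). H2-DMa stood at rank 17 (r = 0.691) and H2-DMb1 at rank 82 (0.602). H2-Oa stood at rank 978 (0.408), Ciita at 8728 (-0.0529), H2-Ob at 10032 (-0.118) and H2-DMb2 at 13389 (-0.33). These were also the members with the lowest counts in kidney and liver, such as 12 for H2-Oa and 58 for H2-DMb2 summed over the young livers. Counting noise weakens such correlations, and its part in this split was not tested.

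Outside the set, and leaving out 1 gene known only by a clone or model name, the genes most like Cd74 were Gpr132 (r = 0.798), Psmb8 (0.754), Castor1 (0.742), Tmsb10 (0.741) and Entpd2 (0.722). Ciita and Cd74 had r = -0.335 over the 16 untreated and 0.695 over the 16 DMSO and 3C libraries, and the difference between these values was not tested. H2-DMb2 and H2-Ob followed the mean of the B cell markers (r = 0.637 and 0.635), where Cd74 did not (-0.3). For H2-DMb2 this was 0.358 over the untreated and 0.775 over the DMSO and 3C libraries, and for H2-Ob 0.24 and 0.826. Leaving out replicate 3 of every group, and with it DMSO kidney replicate 3, gave 0.666 for H2-DMb2 and 0.329 for H2-Ob (n = 24 libraries).

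**Figure D5:**
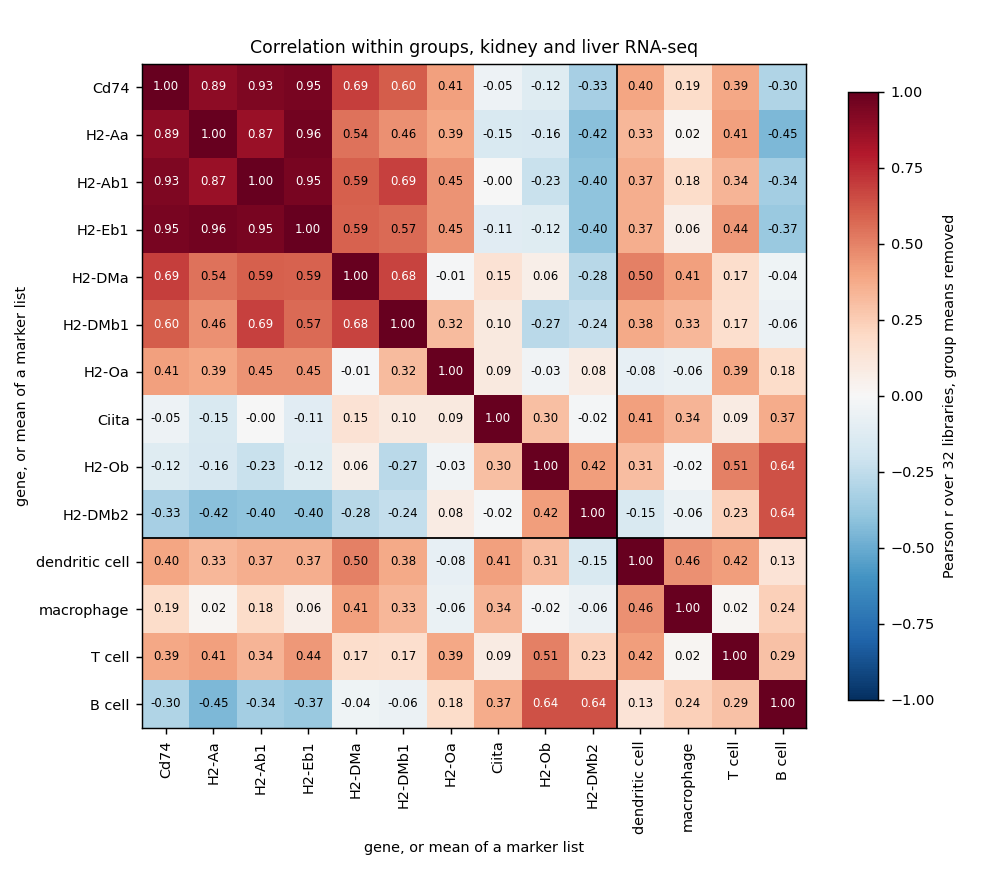
Pearson correlation between the 10 genes and the means of 4 marker lists over 32 kidney and liver RNA-seq libraries, with group means removed (color scale from -1 to 1). Cd74, H2-Aa, H2-Ab1 and H2-Eb1 form a block of high values, from 0.866 to 0.961, and H2-DMb2 and H2-Ob have their highest values with the B cell list.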

How the data were processed

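The series held 50 libraries in 14 groups, 38 RNA-seq and 12 ATAC-seq, and groups were taken from the sample titles and characteristics. The RNA-seq files are raw counts per gene, which the authors deposited after trimming (Trimmomatic 0.39), alignment to the mm10 genome (HISAT2 2.2.1) and counting without regard to strand (HTSeq-count 0.12.4). The ATAC-seq files are MACS2 peaks of each library, which the authors deposited after alignment (Bowtie2 2.3.5.1) and removal of duplicates, with the fold enrichment of each summit and its −log10 p and −log10 q, with no pooling of replicates. Depth was 14.2 to 43.7 M assigned reads per RNA-seq library, the floors of 3 counts cover counting error only, and the printed intervals are those of the fits and include the spread between libraries. The counts of 54 pairs of replicates were compared, and each pair differed by a chi-square of at least 8.12 per degree of freedom, so no library was counted as a copy of another.

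Counts were scaled by the TMM method, filtered with filterByExpr (minimum count 10) and tested with edgeR 4.0.16 (R 4.3.3), each pair of groups on its own libraries. The organ contrasts and interactions were fitted over 16 libraries, and an interaction was called by its adjusted p alone. Printed CPM were scaled over the untreated, the DMSO and 3C tissue, and the fibroblast libraries separately, so that their ratios can differ slightly from the fitted folds. Lengths are union exons of RefSeq. Repeated rows of a peak were merged, and a peak counted at a promoter where at least 1 bp lay within 1 kb of a start site. Correlations used log2 CPM with a prior count of 2. On simulated counts, 199 to 200 of 200 genes with a 4-fold change were recovered in each comparison simulated, which left out the organ contrasts, with 5 to 16 false calls. The changed genes were drawn only from those above a minimum mean count, and the same fixed spread was set for every gene. These shares therefore do not extend to members with low counts or to groups whose libraries were more spread.

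The members and gene lists were chosen with earlier results of these data known. The members are given in every comparison by values, ranges or counts, and of each other pathway list up to 3 called genes per direction with the smallest p, or the gene with the smallest p where none was called in the comparisons of age and of 3C in kidney. Marker lists are given by counts and sums, and some genes of these lists are not reported here. As a check of pairing, libraries of the same number in young kidney and young liver deviated together in 4 of 4 pairs (correlation 0.104 to 0.452), although the labels give only numbers. Between 3C kidney and 3C liver 3 of 4 pairs were over 0.1 (0.0939 to 0.218), short of the rule that each pair must be, although each library was closest to its own number. With that pairing as a block, 1 member was still called in this contrast. Alternatives were DESeq2 1.42.0, RLE size factors, other filters on low counts, the replicate block, other peak windows and thresholds, and each library left out.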

Additional observations from a re-analysis of the deposited data

Results flagged for a closer look

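Within groups of 4 libraries, 5 of the 80 combinations of gene and group held a library whose gap to its nearest neighbour exceeded Dixon's critical share of the group's range (gaps of 0.845 to 0.924), where chance gives about 1 in 20. H2-Ab1 and H2-Eb1 were both highest in young kidney replicate 4, at 74.9 CPM against 60.3 to 61.6 and at 85.9 CPM against 62.8 to 65.9 in the other libraries. H2-Aa had 191 CPM in 3C kidney replicate 2, against 152 to 158. H2-Ob had 3.33 CPM in old liver replicate 3, against 2.2 to 2.34, and 8.43 CPM in DMSO kidney replicate 3, against 3.34 to 3.73.

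The effect of age differed between kidney and liver by the interaction test for Cd74, by 1.46 on the log2 scale, for H2-Ab1, by 1.39, and for H2-DMa, by 1.27, each with the greater value in kidney. The H2-DMa call was lost in 15 of 21 alternatives, among them RLE size factors (adjusted p = 0.0509) and no filter on low counts (adjusted p = 0.0537, both edgeR).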

How the results depend on the processing

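Counts of members called by edgeR were set against alternatives. DESeq2 called 2 members in the aging liver and 1 in the 3C kidney, where edgeR called 0. Over all genes it called 483 as higher and 112 as lower in the aging liver (edgeR 212 and 55), and 405 and 339 for the age interaction (edgeR 127 and 131). The cause was not tested. With each library left out in turn, the members called were 8 to 10 in the aging kidney, 0 to 2 between young organs, 5 to 7 between old organs, 0 to 5 for the age interaction, and 0 to 0 elsewhere. With the replicate block 9 members were called in the aging kidney (H2-Oa had an adjusted p of 0.096), and no other call of a member changed. In the 5 comparisons of pairs of groups, 5 of 19 same-number pairs correlated over 0.1.

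The sign of small differences was not stable with a library left out. H2-Ob between young organs ranged from -0.12 to 0.26, and for the age interaction Ciita ranged from -0.099 to 0.40 (also -0.053 and -0.074) and H2-Oa from -0.03 to 0.77 (also -0.017). For the 3C interaction the ranges were -0.15 to 0.15 for Cd74, -0.21 to 0.17 for H2-Aa, -0.035 to 0.44 for H2-Ab1, -0.078 to 0.30 for H2-Eb1, -0.20 to 0.11 for H2-DMa, -0.41 to 0.53 for H2-Oa and -0.39 to 0.22 for H2-Ob. With the replicate block, H2-Oa had 0.045 there.

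For kidney promoters, 1 member was higher in every old library with a window of 2 kb, and 5 had a peak in every young library at a −log10 q of at least 5. With each library left out, 2 to 4 were higher and 0 to 1 lower in old kidney. In liver, 0 were lower in every old library by percentile within the library (chosen after seeing the data), with 2 kb or at a −log10 q of at least 5. With 2 kb, 1 was higher and 5 had a peak in every old library, and at that q 0 had a peak in every old and 0 in every young library. With each library left out, 0 to 2 were higher, 1 to 2 lower, and 3 to 7 had a peak in every old liver. Low counts limit H2-Oa, H2-Ob and H2-DMb2 in tissue and most members in fibroblasts.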

Other observations

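Of the class II paralogs outside the set, H2-Eb2 had 81 counts (3.36 CPM) in DMSO kidney replicate 3, the library with B cell and plasma cell markers, and 4, 12 and 7 counts in the other DMSO kidneys. H2-Ea-ps, the I-E alpha pseudogene of this strain, had 4 counts (0.141 CPM) in old kidney replicate 1 and 0 in all other RNA-seq libraries.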
